A study of Homo sapiens with 24 samples.

Results

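TMPRSS2, SLC45A3 and NDRG1, 3 androgen-driven genes that act as upstream partners in ETS gene fusions of prostate cancer, and ETV1, an ETS transcription factor gene that can be the downstream partner, were followed across 24 Illumina bead arrays of C4-2B cells. The members were every probe whose platform symbol was one of these 4 genes, which gave 4 of the 47231 probes on the array, 1 for each gene. C4-2B is an androgen-responsive human prostate cancer line derived from LNCaP. Before sampling, every culture spent 3 days without phenol red and in 5% serum stripped of steroids with charcoal, and all carried an siRNA: siNS, directed at a non-specific sequence, sip300, directed at EP300, or siCBP, directed at CREBBP. Each siRNA was sampled at 0 h and at 16 h of 10 nM dihydrotestosterone (DHT), the main androgen of the prostate, so that 6 groups of 4 arrays were compared. EP300 encodes p300 and CREBBP encodes CBP, related histone acetyltransferases that serve many transcription factors as coactivators, and the series title asks how their roles in androgen-regulated expression differ. The labels name no vehicle for the 0 h samples, so that DHT and the passing of 16 h cannot be told apart.

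On GRCh38.p14 the RefSeq annotation places TMPRSS2 at chr21:41464305-41508158, SLC45A3 at chr1:205657851-205680509, NDRG1 at chr8:133237175-133297252 and ETV1 at chr7:13891229-13991425. Which exon or UTR each probe reads was not given in the sources used here. RefSeq lists 3 transcripts for TMPRSS2, 1 for SLC45A3, 8 for NDRG1 and 18 for ETV1, and a single probe need not read them all.

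In many prostate cancers the control region of an androgen-driven gene is joined to the coding part of an ETS transcription factor gene, so that androgen then drives the ETS factor. TMPRSS2, a membrane serine protease of luminal prostate cells, is the most common upstream partner; SLC45A3, which encodes the prostate membrane transporter prostein, and NDRG1, a cytoplasmic stress-response protein induced by androgen and by hypoxia, are less common ones. ETV1 is switched on in a share of tumours by such fusions or by moving whole into an active region, and in LNCaP cells it lies within MIPOL1 on another chromosome.

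The RefSeq promoter table used here, which runs from 250 bases before to 50 after each start, held SLC45A3 and ETV1; TMPRSS2 and NDRG1 are named only. The SLC45A3 promoter is shown with those of the ETS fusion partners FKBP5 and KLK2, because their arrays tracked SLC45A3 and TMPRSS2 most closely of all genes, as described later. Each is written 5′ to 3′ on the gene's own strand, with any match to a searched androgen response motif in capitals.
SLC45A3 (GRCh38.p14, chr1:205680460-205680759, minus strand): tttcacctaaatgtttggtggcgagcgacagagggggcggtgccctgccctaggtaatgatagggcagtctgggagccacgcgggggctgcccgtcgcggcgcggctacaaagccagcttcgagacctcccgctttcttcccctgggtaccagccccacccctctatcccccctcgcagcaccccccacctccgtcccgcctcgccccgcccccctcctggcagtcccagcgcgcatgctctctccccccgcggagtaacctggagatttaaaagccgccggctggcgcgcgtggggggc
FKBP5 (GRCh38.p14, chr6:35728534-35728833, minus strand): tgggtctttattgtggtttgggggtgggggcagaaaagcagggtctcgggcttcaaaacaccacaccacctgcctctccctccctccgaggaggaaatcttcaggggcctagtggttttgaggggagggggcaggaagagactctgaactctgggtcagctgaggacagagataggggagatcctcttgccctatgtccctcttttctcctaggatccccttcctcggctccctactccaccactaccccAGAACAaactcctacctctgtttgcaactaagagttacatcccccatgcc
KLK2 (GRCh38.p14, chr19:50873189-50873488, plus strand): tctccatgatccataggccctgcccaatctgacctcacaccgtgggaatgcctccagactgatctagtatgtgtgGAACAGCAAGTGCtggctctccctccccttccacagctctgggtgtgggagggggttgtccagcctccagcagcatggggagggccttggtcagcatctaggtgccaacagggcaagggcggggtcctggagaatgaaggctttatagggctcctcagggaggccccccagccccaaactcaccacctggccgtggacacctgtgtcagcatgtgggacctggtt
Both strands were searched for the full response element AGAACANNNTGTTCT, its relaxed core GNACANNNTGTNC, the core with a further free base GNACANNNNGTNC and its single arm AGAACA; the first 3 patterns nest within one another, and the arm is the left end of the first. These were found in 0.00285%, 0.39%, 2.19% and 14.8% of 35116 RefSeq promoters of the same length. SLC45A3 held none of the 4 patterns in this window. Of 6 listed ETV1 promoters 2, whose windows overlap, held the single arm, and 0 held the other patterns. FKBP5 held the single arm, starting on the start base itself, and its other listed promoter held none. KLK2 held GAACAGCAAGTGC, a match to GNACANNNNGTNC, at -175 to -163 with the start base counted as 0. A match or its absence describes these letters only.

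Each array detected 17663 to 19830 probes, and the tests took in the 23038 probes that reached a detection p under 0.05 on 4 or more of the 24 arrays. EP300 itself fell by 0.88 and 1.19 (log2) in sip300 cells without and with DHT, to 54.3% and 43.9% of siNS, and CREBBP fell by 1.68 and 1.74 in siCBP cells, to 31.1% and 29.9% (limma, adjusted p between 0.000116 and 0.0245). CREBBP was also higher in sip300 cells, by 0.49 ± 0.136 (SE) over both DHT times (limma, adjusted p = 0.0114). Of 10 luminal prostate markers on the array 8 were detected on all 24 arrays, and the basal keratins KRT5, KRT14 and KRT15 on none. Each of the 2 slides held 2 arrays of every group. Groups compared within a slide often held different replicate numbers, so slide and replicate number cannot be told apart in those differences. The labels number the replicates without saying that they were separate cultures, so that p-values measure the spread between these arrays.

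TMPRSS2, SLC45A3 and NDRG1 were detected on all 24 arrays and ETV1 on none. On the log2 scale of the normalised signal TMPRSS2 ranged from 7.52 to 12.50, SLC45A3 from 7.48 to 12.83 and NDRG1 from 9.42 to 13.52; these are probe signals, so levels are not set between genes. For TMPRSS2 the groups ran upward from sip300 without DHT (mean 7.84), siCBP without DHT (9.03), siNS without DHT (9.72) and sip300 with DHT (9.99) to siCBP with DHT (12.10) and siNS with DHT (12.14). In that order only the lowest group and the 2 highest stood clear of their neighbours, and EP300-depleted cells with hormone overlapped siNS cells without it. SLC45A3 fell into 2 tiers instead, 8.08 to 8.39 without DHT and 12.07 to 12.44 with it, whatever the siRNA. NDRG1 also had 2 tiers, 9.80 to 10.76 and 12.23 to 13.03, with sip300 the lowest mean of each tier but overlapping the next group.

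**Figure D1:**
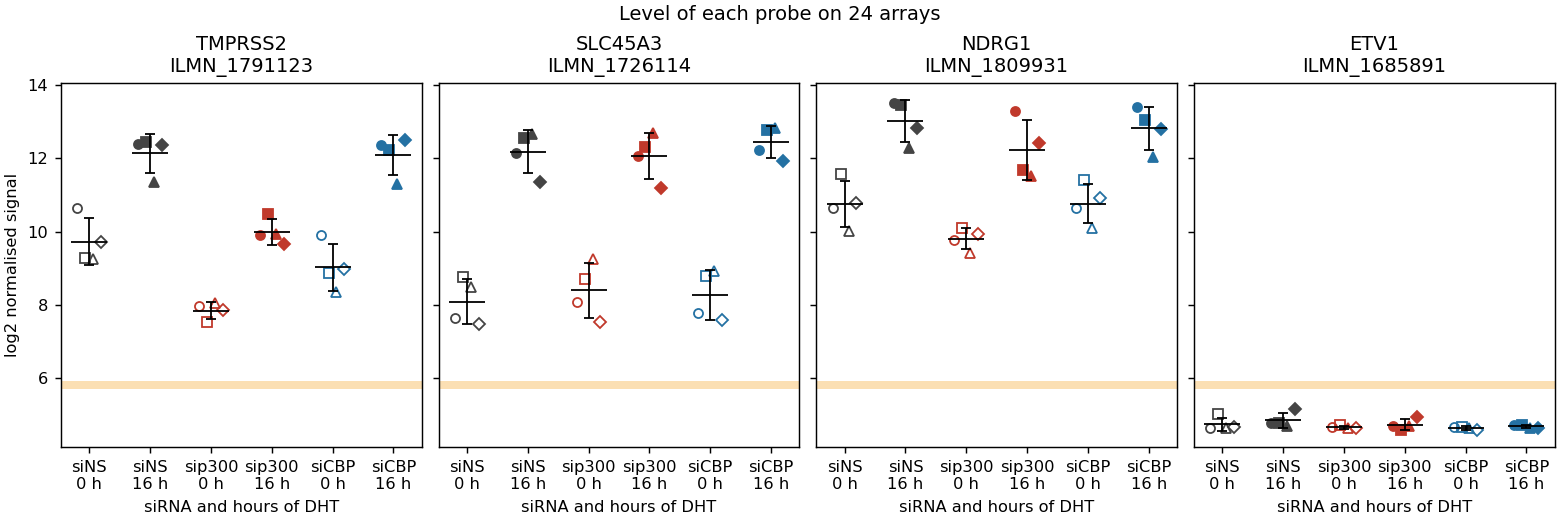
Log2 normalised signal of each probe on every array, by siRNA and hours of DHT; circles, squares, triangles and diamonds are replicates 1 to 4, open symbols 0 h, filled symbols 16 h, bars the mean ± SD of 4 arrays, and the band the lowest detected signal of the arrays (5.70 to 5.92). TMPRSS2 is lowest in the sip300 group at each DHT time, SLC45A3 splits by DHT, and every ETV1 array lies under the band.

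The first question was how far each gene rose with DHT. All 3 tested members rose in each of the 3 siRNA arms (limma, adjusted p under 0.05), where 1.34% of all probes rose in siNS cells, 0.482% in sip300 cells and 1.02% in siCBP cells. For these 9 comparisons every array with DHT lay above every array without it, which held for 3.33%, 1.79% and 2.61% of all probes in the same arms.

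TMPRSS2 in siNS cells read 10.65, 9.29, 9.25 and 9.71 on replicates 1 to 4 without DHT and 12.39, 12.46, 11.34 and 12.36 with it. In sip300 cells TMPRSS2 read 7.95, 7.52, 8.04 and 7.84 and then 9.90, 10.47, 9.94 and 9.65. In siCBP cells it read 9.91, 8.86, 8.36 and 8.97 and then 12.35, 12.24, 11.30 and 12.50. Every array with hormone was above every array of the same siRNA without it, and replicate 3 was the lowest with DHT in the siNS and siCBP arms. TMPRSS2 rose by 2.41 ± 0.337 in siNS cells, 5.33-fold, by 2.15 ± 0.337 in sip300 cells, 4.44-fold, and by 3.07 ± 0.337 in siCBP cells, 8.41-fold (log2 difference ± SE; limma, adjusted p = 9.87e-05, 0.000832 and 5.51e-06). Within slides 1 and 2 the rise was 2.46 and 2.37 in siNS cells, 1.99 and 2.31 in sip300 cells, and 2.93 and 3.21 in siCBP cells.

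SLC45A3 in siNS cells read 7.63, 8.75, 8.47 and 7.48 without DHT and 12.15, 12.57, 12.66 and 11.36 with it. In sip300 cells it read 8.08, 8.71, 9.24 and 7.54 and then 12.06, 12.30, 12.70 and 11.20. In siCBP cells it read 7.76, 8.79, 8.93 and 7.58 and then 12.23, 12.78, 12.83 and 11.93. Replicate 4 was the lowest of its group in all 6 groups, while the tiers without and with DHT stayed far apart. The rise was 4.10 ± 0.404 in siNS cells, 17.2-fold, 3.68 ± 0.404 in sip300 cells and 4.17 ± 0.404 in siCBP cells, 18.1-fold (limma, adjusted p = 9.67e-07, 6.11e-06 and 8.62e-07). In siNS cells only 2 of the other 23037 probes had a larger rise, in sip300 cells 8, and in siCBP cells 0. Within slides 1 and 2 SLC45A3 rose by 3.91 and 4.29 in siNS cells, 2.66 and 4.70 in sip300 cells, and 4.68 and 3.67 in siCBP cells. In the sip300 arm slide 1 held replicates 2 and 3 without DHT but 1 and 4 with it. Between sip300 arrays of the same number the rise was 3.98, 3.59, 3.46 and 3.67 in replicates 1 to 4.

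NDRG1 in siNS cells read 10.65, 11.57, 10.02 and 10.78 without DHT and 13.52, 13.45, 12.29 and 12.84 with it. In sip300 cells it read 9.77, 10.09, 9.42 and 9.92 and then 13.29, 11.67, 11.52 and 12.42. In siCBP cells it read 10.65, 11.40, 10.10 and 10.92 and then 13.39, 13.06, 12.03 and 12.79. Replicate 3 was the lowest array of every NDRG1 group, and in sip300 cells with DHT replicate 1 stood well above the others. NDRG1 rose by 2.27 ± 0.385 in siNS cells, 4.82-fold, by 2.42 ± 0.385 in sip300 cells, 5.37-fold, and by 2.05 ± 0.385 in siCBP cells, 4.16-fold (limma, adjusted p = 0.00103, 0.000976 and 0.00319). Within slides the rise was 2.81 and 1.73 in siNS cells, 3.10 and 1.75 in sip300 cells, and 2.14 and 1.97 in siCBP cells. In RNA from a whole culture, fewer expressing cells and less RNA per cell cannot be told apart, here or in the comparisons that follow.

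**Figure D2:**
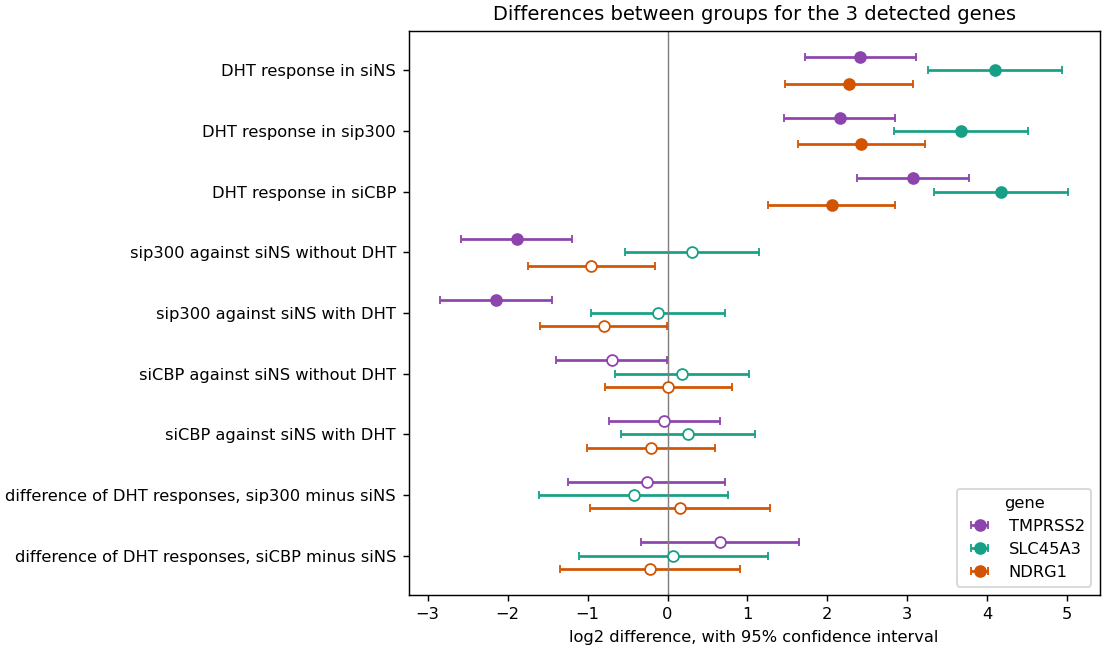
Log2 differences between groups for the 3 detected genes with 95% confidence intervals from the limma fit; filled circles passed an adjusted p of 0.05 and open circles did not. All 9 DHT responses lie well above 0, and of the siRNA differences plotted TMPRSS2 in sip300 cells, at -1.89 and -2.15, passed.

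With EP300 siRNA, TMPRSS2 fell at both DHT times. It was lower than in siNS cells by 1.89 ± 0.337 without DHT, at 27.1% of the siNS level, and lower by 2.15 ± 0.337 with DHT, at 22.6% (limma, adjusted p = 0.00183 and 0.000412). It was the 1 of 3 tested members called at each time, where 3.04% of all probes fell without DHT and 4.41% with it. Every sip300 array lay below every siNS array of its time, which held for 5.08% and 7.29% of all probes, and 42 of the other probes had a larger fall without DHT and 22 with it. Within slides 1 and 2 the TMPRSS2 difference was -2.17 and -1.60 at 0 h, then -2.64 and -1.66 at 16 h. As a mean of both times the fall was 2.02 ± 0.238 (limma, adjusted p = 5.41e-06), and it was called with any 1 of the 24 arrays left out.

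NDRG1 was lower in sip300 than in siNS cells by a smaller amount, and SLC45A3 was not measurably lower. The NDRG1 difference was -0.95 ± 0.385 without DHT and -0.80 ± 0.385 with DHT, neither of which passed (limma, adjusted p = 0.150 and 0.214), with 51.6% and 57.5% of the siNS level. With replicate number as a block both passed, at adjusted p = 0.0199 and 0.0426 (limma). As a mean of both times NDRG1 fell by 0.88 ± 0.272 (limma, adjusted p = 0.0235), one of 2 members called where 9.85% of all probes fell. That call was lost without replicate 2 of siNS at 0 h, replicate 1 of siNS at 16 h or replicate 3 of sip300 at 16 h (adjusted p = 0.0548, 0.0535 and 0.0580), and within slides 1 and 2 the difference was -0.43 and -1.32, neither passing alone. For SLC45A3 the differences were 0.31 ± 0.404 without DHT and -0.12 ± 0.404 with it (limma, adjusted p = 0.738 and 0.911). The 95% interval of its mean difference over both times ran from -0.50 to 0.69. Within slides 1 and 2 the SLC45A3 mean difference was 0.30 and -0.11.

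Beside these falls, some markers of other cell types were higher in sip300 cells. The smooth muscle actin gene ACTA2, detected on 1 of 4 siNS and 4 of 4 sip300 arrays at each time, rose by 1.64 at 0 h and 1.51 at 16 h, 1 of 4 measured of 8 stromal markers. ENO2, 1 of 2 measured of 6 neuroendocrine markers, rose over both times by 0.95. ITGB4, 1 of 2 measured of 6 basal markers, was not well above background on any siNS array, and its mean over both times passed (limma, adjusted p = 0.00269). Its level was at least 1.34-fold higher at 0 h, and no fold could be bounded at 16 h. NGFR, the other measured basal marker, was detected on no sip300 array and on no siNS array with DHT. Without DHT its mean was 5.30 in sip300 and 5.53 in siNS cells, too near background for a fold. Over both times 14.7% of all genes rose. The summed linear level of the stromal list ran from 731 to 1870 in siNS cells without DHT and from 1024 to 1930 in sip300 cells without DHT, and with DHT from 729 to 1735 and from 907 to 2005. For the neuroendocrine list the sums were 183 to 436 and 368 to 746 without DHT, and 174 to 594 and 396 to 713 with it. For the basal list they were 73.5 to 118 and 89.8 to 146 without DHT, and 72.0 to 88.9 and 74.4 to 122 with it. The luminal list, with TMPRSS2 among its 10 measured genes, went the other way with DHT. Its sums were 11798 to 14028 in siNS and 8824 to 14629 in sip300 cells without DHT, and 17676 to 23874 and 11713 to 15166 with it. KRT5, KRT14, KRT15, SYP and NCAM1 were detected on no array, and the part of these markers in the member differences was not tested.

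Whether EP300 siRNA changed the members unequally was tested by permuting arrays between siNS and sip300 within each DHT time. The arrays were shuffled without regard to replicate number, and the 2 times independently of each other. These comparisons between members were chosen with their values known, and 15 were made in all. Over both times TMPRSS2 fell further than SLC45A3 by 2.11 ± 0.446 (exact 2-sided permutation p = 0.000408, the smallest that 4900 arrangements allow; adjusted p = 0.00612). The difference had this direction in 8 of 8 pairs of arrays with the same replicate number, and was -2.70 and -1.53 within slides 1 and 2. TMPRSS2 against NDRG1, at -1.14 ± 0.378, and NDRG1 against SLC45A3, at -0.97 ± 0.483, each had the same direction in 8 of 8 pairs but missed the threshold after adjustment (exact permutation, adjusted p = 0.0643 and 0.147). With the replicate number as a block, permuting the signs of the 8 same-number differences, all 3 pairs of members passed (exact permutation p = 0.00781, the smallest that 256 arrangements allow, and adjusted p = 0.0293). This took the 2 DHT times of a number as separate pairs. Were the signs flipped together for each of the 4 numbers, no p under 0.125 would be possible, so these passes rest on treating the times as independent. With CREBBP siRNA over both times TMPRSS2 against SLC45A3, at -0.59, and NDRG1 against SLC45A3, at -0.32, also passed under the block (8 of 8 and 7 of 8 pairs; exact permutation, adjusted p = 0.0293 and 0.0469) and not without it (0.376 and 0.519). For the DHT response the same test allows no p under 0.0286 in 1 arm, and none of the 9 member pairs passed (exact permutation, adjusted p of 0.0857 or more); the block allows none under 0.125 there. SLC45A3 rose by more than NDRG1 and TMPRSS2 in 4 of 4 same-number pairs in every arm.

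Pairs of arrays with the same number showed how evenly this ran. Between sip300 and siNS TMPRSS2 differed by -2.69, -1.77, -1.21 and -1.87 in replicates 1 to 4 without DHT, and by -2.49, -1.99, -1.40 and -2.71 with DHT. For NDRG1 the differences were -0.87, -1.48, -0.60 and -0.86 at 0 h and -0.23, -1.78, -0.77 and -0.42 at 16 h. SLC45A3 differed by 0.44, -0.03, 0.77 and 0.05 and then by -0.09, -0.26, 0.04 and -0.16. TMPRSS2 was thus lower in every pair by more than 1 log2 unit, NDRG1 lower in every pair by varying amounts, and SLC45A3 on both sides of 0. The replicate numbers themselves moved the genes in different ways: replicate 3 lay below its group mean by 0.43 for TMPRSS2 and 0.67 for NDRG1 on average, but 0.57 above it for SLC45A3, whose replicate 4 averaged -0.72.

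**Figure D3:**
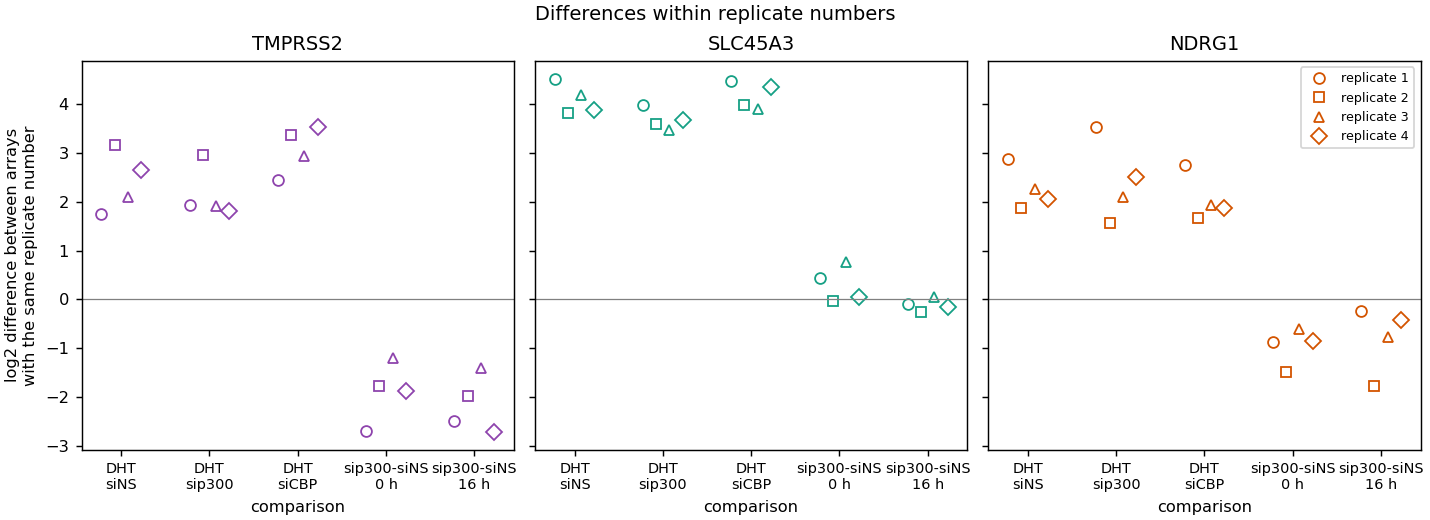
Log2 differences between the 2 arrays that share a replicate number, for the DHT response in each arm and for sip300 minus siNS at 0 h and 16 h; the 4 symbols are replicates 1 to 4. The TMPRSS2 differences with sip300 run from -2.71 to -1.21, those of NDRG1 from -1.78 to -0.23, and those of SLC45A3 from -0.26 to 0.77.

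CREBBP siRNA left no member called at either time or over both (limma, 0 of 3 each, where 0.0391%, 0.0217% and 0.221% of all probes changed; 1, 0 and 0 members had an unadjusted p under 0.05, and 0 were called with quantile normalisation or with the authors' values). The member with the unadjusted p under 0.05 was TMPRSS2 without DHT, at -0.70 ± 0.337, or 61.6% of siNS (limma, adjusted p = 0.999), and with DHT its difference was -0.04 ± 0.337. TMPRSS2 was lower in all 4 same-number pairs without DHT, by 0.74, 0.42, 0.89 and 0.74, although the groups overlapped. NDRG1 differed by 0.01 and -0.21 and SLC45A3 by 0.18 and 0.26 at the 2 times. The 95% intervals with DHT were -0.74 to 0.66 for TMPRSS2, -0.58 to 1.09 for SLC45A3 and -1.002 to 0.590 for NDRG1. Like the other intervals given, these come from the fit without a block for replicate number. With that block 0 members were called. SLC45A3 was higher in every same-number pair, by 0.13, 0.05, 0.45 and 0.10 without DHT and 0.07, 0.21, 0.17 and 0.57 with it. NDRG1 ran from -0.18 to 0.14 without DHT and from -0.39 to -0.05 with it.

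Set directly against siCBP cells with DHT, sip300 cells held TMPRSS2 lower by 2.11 ± 0.337, at 23.2% (limma, adjusted p = 0.000745), the 1 member called where 2.49% of all probes fell. Without DHT the same difference was -1.19 ± 0.337 at an adjusted p of 0.0495 (limma), where 1.95% of all probes fell, and it passed in only 6 of the 24 fits that left out an array. NDRG1 differed by -0.96 and -0.59 and SLC45A3 by 0.13 and -0.37, without and with DHT, and none of these passed.

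Whether the siRNAs changed the size of the DHT response was tested as a difference of differences. No member was called for sip300 minus siNS, siCBP minus siNS or sip300 minus siCBP (limma, 0 of 3 each, and 0 with an unadjusted p under 0.05), where 0.00434%, 0% and 0% of all probes changed, and 0 members were called with quantile normalisation, the authors' values or the replicate block. For TMPRSS2 the response in sip300 minus that in siNS cells was -0.26 ± 0.476, with a 95% interval of -1.25 to 0.72. For SLC45A3 it was -0.43 ± 0.572, with an interval of -1.61 to 0.76, and for NDRG1 0.15 ± 0.544, with an interval of -0.97 to 1.28. The TMPRSS2 falls with EP300 siRNA without and with DHT thus differed by less than this test could resolve. For TMPRSS2 siCBP minus siNS was 0.66 ± 0.476, with an interval of -0.33 to 1.64. Its sip300 minus siCBP difference was larger, at -0.92 ± 0.476, with an interval of -1.91 to 0.06 (limma, unadjusted p = 0.0657). The same 2 differences were 0.07 and -0.50 for SLC45A3 and -0.21 and 0.37 for NDRG1.

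The single ETV1 probe was not above background on any array, and it need not read all 18 listed transcripts. Its detection p lay between 0.410 and 0.999, its raw signal between 92.0 and 158 and its log2 signal between 4.56 and 5.15, under the lowest detected signal of every array. Only 0.443% of probes had a lower mean log2 signal over the 24 arrays. Without DHT the 4 arrays read 4.64, 5.01, 4.64 and 4.65 in siNS cells, 4.65, 4.71, 4.64 and 4.62 in sip300 cells, and 4.67, 4.65, 4.63 and 4.56 in siCBP cells. With DHT they read 4.77, 4.77, 4.68 and 5.15, then 4.69, 4.59, 4.69 and 4.92, and then 4.73, 4.70, 4.64 and 4.62. The groups overlapped throughout, and since all are below background no fold is given. ETV1 was left out of the main fit by the filter on dim probes; in fits without that filter 0 of 14 comparisons were called, with a smallest unadjusted p of 0.0799 (limma; 0 of 14 with quantile normalisation, where 1 had an unadjusted p under 0.05, and 0 of 14 with the authors' values). MIPOL1, the gene that holds ETV1 in LNCaP cells, was detected on all 24 arrays at a median of 7.58, between 6.90 and 8.11, and none of the 14 comparisons called it. Its group means lay between 7.35 in siNS cells with DHT and 7.86 in siCBP cells without DHT. DGKB, a diacylglycerol kinase gene next to ETV1 at its normal place, rose in sip300 cells by 1.03 without DHT and 1.10 with it. Across all probes 721 and 1091 of 23038 were called higher there without and with DHT.

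Of 28 ETS family genes on the array 15 were detected on all 24 arrays and 18 were tested. ERG, the ETS gene most often joined to TMPRSS2 in tumours, was detected on at most 1 array by any of its probes, ETV4 on at most 2, and FLI1, ETV5, ETV7, ETS2 and ETV3L, like ETV1, on none. With DHT, 2 of the 18 rose in siNS cells and in siCBP cells and 0 in sip300 cells, and 0 fell in any arm (limma; in the order siNS, siCBP, sip300, 6, 5 and 5 had an unadjusted p under 0.05, 1.54%, 1.23% and 0.587% of all genes rose, and the median of the list was 0.22, 0.03 and 0.02, against -0.02 over 12438 genes in each arm). The 2 were SPDEF, a luminal prostate ETS factor, and ELK4, which is known from read-through transcripts with its neighbour SLC45A3. SPDEF rose by 1.59 ± 0.230 in siNS and 1.24 ± 0.230 in siCBP cells, and its difference in sip300 cells was 0.78 ± 0.230 (adjusted p = 0.250). ELK4 rose by 1.07 ± 0.207 in siNS and 0.92 ± 0.207 in siCBP cells, with 0.43 ± 0.207 in sip300 cells (adjusted p = 0.999), by its brightest probe. Its 3 other tested probes, detected on 11 to 13 arrays, differed by 1.54, which passed, 0.61 and 0.14 with DHT in siNS cells. Over both times with EP300 siRNA 4 of 18 fell and 0 rose, against 11.4% and 14.7% of all genes: EHF by 0.89, SPDEF by 0.88, ELF3 by 0.66 and ELK4 by 0.65. SPDEF and ELK4 fell at 16 h of DHT taken alone as well, by 1.28 and 0.97. The other ELK4 probes differed there by -0.61, -0.24 and 0.14 without passing, so that its probes disagree. With CREBBP siRNA 0 of 18 were called at either time, where 0.0391% and 0.0217% of all probes changed without and with DHT. Of the 18, 3 without DHT and 1 with it had an unadjusted p under 0.05 (limma).

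Of 9 other known upstream partners 7 were tested, ACSL3 and HERPUD1 were not analysed here, and with DHT KLK2, a prostate kallikrein protease, and FKBP5, whose product works with the chaperones of steroid receptors, rose in siNS cells while 0 fell (1.54% of all genes rose and 0.796% fell). KLK2 rose by 3.91 ± 0.435 and FKBP5 by 2.70 ± 0.158. In sip300 cells FKBP5 rose by 2.25 ± 0.158, and KLK2 was detected on 0 of 4 arrays without DHT, so that its rise was at least 7.20-fold (limma, adjusted p = 0.000145). With DHT, KLK2 fell with EP300 siRNA by 1.96 ± 0.435, to 25.6% of siNS (adjusted p = 0.00627), and FKBP5 differed by -0.32 ± 0.158 (adjusted p = 0.236). Without DHT the KLK2 level was at least 1.87-fold lower in sip300 cells, short of the threshold (adjusted p = 0.0973), and FKBP5 differed by 0.13 ± 0.158. CANT1, a nucleotidase gene, fell with EP300 siRNA by 0.82 with DHT, and UBTF, which encodes an RNA polymerase I factor, rose by 1.01 without DHT. Across all probes 4.41% fell with EP300 siRNA with DHT, and 721 of 23038 rose without DHT. With CREBBP siRNA 0 of 7 were called at either time, and 0 had an unadjusted p under 0.05 (limma), where 0.0391% and 0.0217% of all probes changed without and with DHT. KLK3, the gene of prostate-specific antigen and a reference for androgen drive, differed with DHT by 2.06 ± 0.656 in siNS cells without passing (adjusted p = 0.137), and with EP300 siRNA it fell by 2.51 without DHT and by 2.12 with it.

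**Figure D4:**
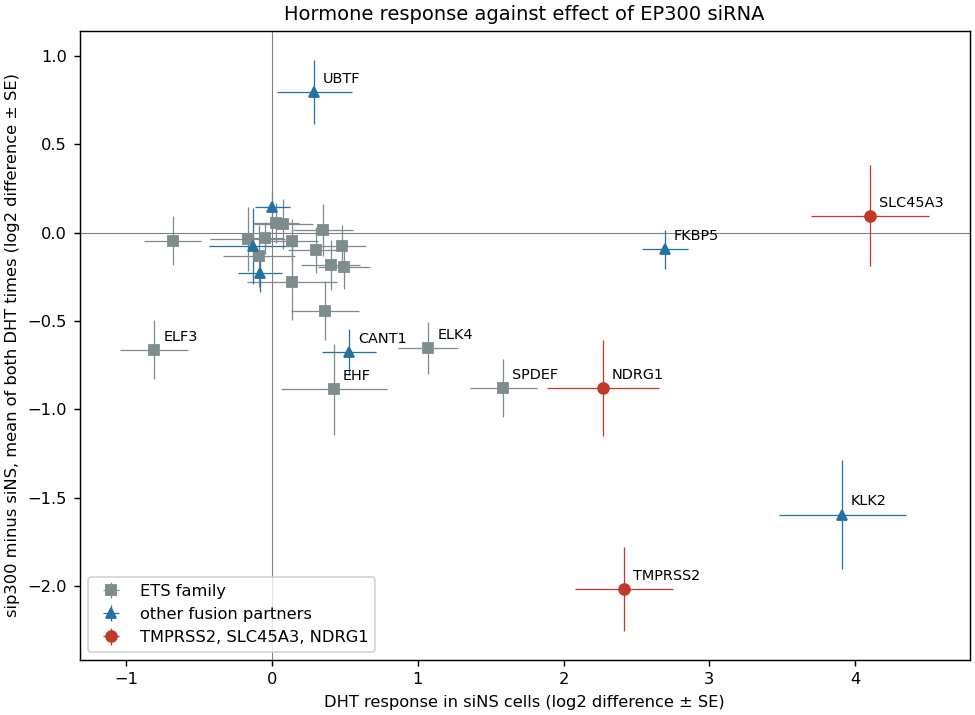
DHT response in siNS cells (horizontal, log2) against the sip300 minus siNS difference averaged over both DHT times (vertical, log2), with standard errors, for the 3 members, the 7 other tested fusion partners and the 18 tested ETS genes; both axes share the siNS arrays. SLC45A3 and FKBP5 rise by 4.10 and 2.70 near 0 on the vertical axis, while TMPRSS2 rises by 2.41 and lies at -2.02; KLK2, not well above background in sip300 cells at 0 h, is drawn at its measured mean.

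The genes whose arrays followed each member most closely were found among 12435 others by Pearson correlation over 24 arrays, after subtracting the mean of each replicate number. Arrays of a group share their treatment, so the coefficients describe likeness only, and siRNA differences like the member's follow from how the genes were chosen. TMPRSS2 was closest to KLK2 (r = 0.954), PDIA5, a protein disulfide isomerase gene, OTULINL, ST6GALNAC1, a sialyltransferase gene, and LRIG1, a receptor tyrosine kinase inhibitor gene (0.943). The mean differences of PDIA5, OTULINL and LRIG1 with EP300 siRNA lay between -1.26 and -0.86, beside -2.02 for TMPRSS2 itself. KLK2 and ST6GALNAC1, not well above background in sip300 cells at 0 h, differed at 16 h by -1.96 and -2.14. SLC45A3 was closest to FKBP5 (0.989), RHOU, a small GTPase gene, LPAR3, NBL1, a BMP antagonist gene, and SGK1, a steroid-induced kinase gene (0.974), whose mean differences with EP300 siRNA lay between -0.17 and 0.43, beside 0.10 for SLC45A3. NDRG1 was closest to ERRFI1, an EGF receptor inhibitor gene (0.956), TSKU, STK39, TNFAIP8 and LRIG1 (0.947), with mean differences of -0.94 to -0.40, beside -0.88 for NDRG1. Least alike were FZD3 (-0.979), BARD1 and METTL25 for TMPRSS2, NCOA7 (-0.958), ZIC2 and ATP2B1-AS1 for SLC45A3, and BARD1 (-0.906), PLPPR1 and CD83 for NDRG1. Among the members r was 0.92 for SLC45A3 and NDRG1, 0.87 for TMPRSS2 and NDRG1, and 0.79 for TMPRSS2 and SLC45A3. Without subtracting replicate means 3 of the 5 closest genes were shared for TMPRSS2, 3 for SLC45A3 and 0 for NDRG1, and with the authors' values 4, 5 and 5.

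**Figure D5:**
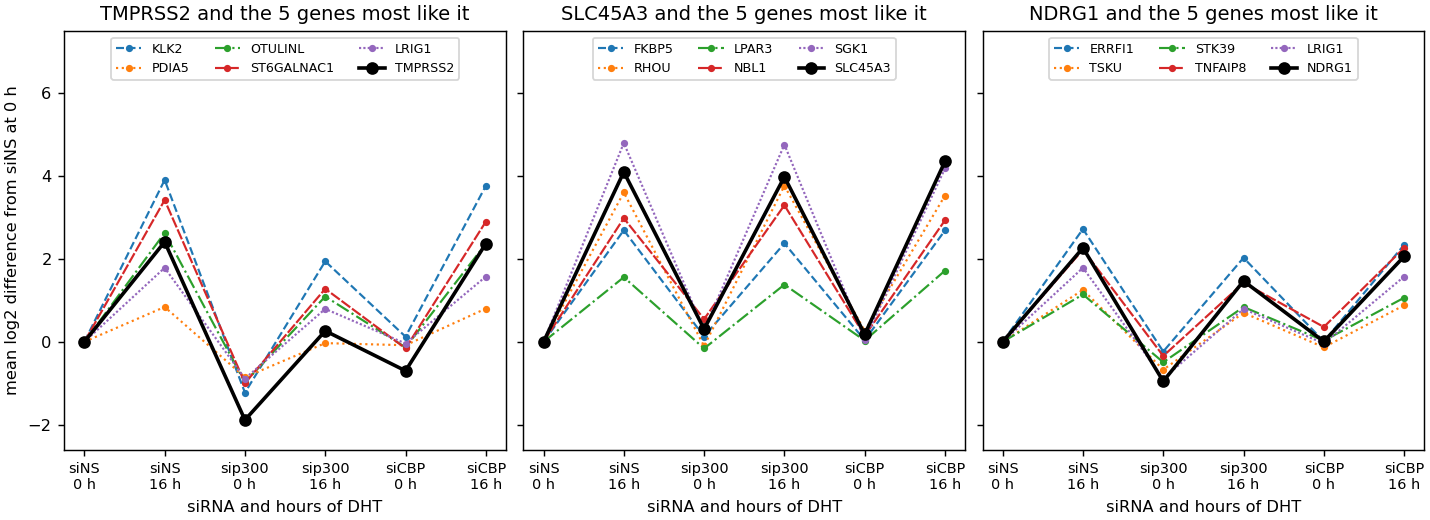
Mean log2 difference of each group from siNS at 0 h for TMPRSS2, SLC45A3 and NDRG1 (black) and the 5 genes most like each (coloured); lines join groups only to guide the eye, and KLK2 and ST6GALNAC1 at sip300 0 h are not well above background. The TMPRSS2 genes dip in both sip300 groups, and the SLC45A3 genes return to near the same low and high levels in every arm. The genes were chosen for such likeness over these same arrays.

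Related genes outside the fusion partners gave few calls. Of 9 tested relatives of the members, other transmembrane serine proteases, SLC45A transporters and NDRG genes, 0 were called with DHT in any arm (limma; 1 had an unadjusted p under 0.05 in each; in the order siNS, sip300, siCBP 1.54%, 0.587% and 1.23% of all genes rose and 0.796%, 0.0482% and 0.804% fell; median -0.16 in siNS cells against -0.02 over all genes). The serine protease gene HPN, which encodes hepsin, fell with EP300 siRNA by 0.87 without DHT and 0.85 with it, and ST14, which encodes matriptase, fell by 0.51 over both times; these were 2 of the 9, where 11.4% of all genes fell over both times. Of 6 tested cofactors of androgen signalling, HOXB13 fell by 0.95 with DHT in siNS cells, where 0.796% of all genes fell. NCOA1 rose with EP300 siRNA by 0.96 at 16 h, where 1091 of 23038 probes were called higher. FOXA1 rose by 0.35 over both times with EP300 siRNA, where 2550 of 23038 probes were called higher. Over both times 5 of the 6 cofactors had an unadjusted p under 0.05 with EP300 siRNA, 3 higher and 2 lower (limma).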

How the data were processed

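Total RNA was measured on 24 single-colour Illumina arrays in 6 groups of 4 by siRNA and DHT time, per the labels' sample titles. The deposited signal table held each probe's mean bead intensity, not normalised, and, per the file headers, a detection p-value for each intensity; 887 control rows were left out. The authors' processed table was on a log2 scale, and the submitters' processing notes name limma without a version. Those log2 values correlated with the ones computed here at r = 0.998 or more on every array.

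Background correction and quantile normalisation used limma 3.58.1 (R 4.3.3; function neqc, offset 16, background estimated from the detection p-values). The 23038 probes that reached a detection p under 0.05 on 4 or more of the 24 arrays were kept. One limma model of the 6 group means, with 18 residual degrees of freedom and without trend or robust options, gave 14 contrasts, 2-sided, with Benjamini-Hochberg adjustment over all kept probes within each contrast, and probes were called at an adjusted p under 0.05. Other genes were read from their brightest kept probe, giving 12438 genes. Symbols came from the platform's probe table, brought to current symbols by Entrez identifier. The fit was tested on simulated data.

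Members and gene lists were chosen with earlier results of these data known. Genes were named by rule: the members, EP300, CREBBP and KLK3; of each list up to 4 called genes each way and, called or not, ERG, FLI1, ETV4, ETV5, ELK4 and MIPOL1; and per member the 5 most and 3 least correlated genes. FKBP5, and values given for the called genes in other arms or times, were chosen after their values were seen.

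Same-numbered arrays deviated together from their group means (60 pairs, r = 0.127 to 0.522, against a median of -0.0987 for different numbers), and each of the 24 arrays was most like arrays of its own number, so the numbers were taken to pair the samples, from the data and not the labels. The fit has no block; the fit with replicate number as a block, the authors' values, quantile normalisation alone, other filters, 1 probe per gene, a slide term, fits within each slide, fits of only the groups compared, the trend and robust options, and leaving out each array were alternatives; a paired permutation between members was added after the data were seen. Scan and hybridisation times were not used here. Detection, not counting depth, limits the precision of an array: between 17663 and 19830 probes were detected.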

Additional observations from a re-analysis of the deposited data

Results flagged for a closer look

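A pair of single arrays stood apart from the other 3 of their group by Dixon's test, of 24 groups tested (6 for each of the 4 genes); chance flags about 1 in 20 groups. TMPRSS2 on replicate 3 of siNS cells with DHT read 11.34 (log2), below the other 3 arrays at 12.36 to 12.46. The DHT response of TMPRSS2 in siNS cells and its difference with EP300 siRNA were called with that array left out. ETV1 on replicate 2 of siNS cells without DHT read 5.01 (log2), above the other 3 at 4.64 to 4.65, with a detection p of 0.562, so that all 4 arrays were below background.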

How the results depend on the processing

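Of 462 member results (42 comparisons under 11 alternatives other than leaving out an array), 436 kept their side of the threshold, 20 lost and 6 gained a call. A reversal was counted only where either fit called the difference, and 0 were found. Uncalled differences that changed sign were counted as kept, such as SLC45A3 in sip300 against siNS over both times, at 0.10 and on slide 2 at -0.11. With each array left out, 987 of 1008 kept their side of the threshold, 21 lost the call and 0 reversed by the same rule. Of the 21, 18 were TMPRSS2 in sip300 against siCBP without DHT (-1.41 to -0.89) and 3 were NDRG1 in sip300 against siNS over both times (-1.05 to -0.74). TMPRSS2 in sip300 against siCBP without DHT also missed the threshold with quantile normalisation alone (-0.86), with no filter, with the trend and robust options and with only the groups compared (-1.19 each), and on slides 1 and 2 alone (-1.66 and -0.71); with DHT it missed it on slide 2 (-1.62). Detection p was 0 on all arrays for 3 members; ETV1 was above background on none, so no difference could be measured for it.

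The slides taken alone hold 2 arrays per group, and not always the same replicate numbers in the groups compared. Slide 1 lost the calls of TMPRSS2 DHT in sip300 (1.99), TMPRSS2 sip300 against siNS without DHT (-2.17), SLC45A3 DHT in sip300 (2.66), NDRG1 DHT in siCBP (2.14) and NDRG1 sip300 against siNS over both times (-0.43). Slide 2 lost those of TMPRSS2 DHT in siNS (2.37) and sip300 (2.31), TMPRSS2 sip300 against siNS without (-1.60) and with DHT (-1.66), NDRG1 DHT in siNS (1.73), sip300 (1.75) and siCBP (1.97), and NDRG1 sip300 against siNS over both times (-1.32). NDRG1 in sip300 against siNS gained calls without and with DHT from the authors' values (-0.92 and -0.77) and from the replicate block (-0.95 and -0.80), as did sip300 against siCBP without DHT (-0.95 and -0.96). The block changed no other limma call of a member. Under a paired permutation chosen after seeing the data, 4 comparisons between members gained a call. That permutation took the DHT times of a number as separate pairs.

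Counts of probes called moved more. For DHT in siNS, sip300 and siCBP (452, 121 and 388) they were 1813, 484 and 1460 with the authors' values, 951, 265 and 785 with the replicate block, 83, 59 and 46 on slide 1, 71, 35 and 69 on slide 2, and 289, 76 and 205 with only the groups compared. For sip300 against siNS without and with DHT (1422 and 2106) they were 5302 and 5973 with the authors' values, 3293 and 3992 with the block, 38 and 355 on slide 1 and 124 and 13 on slide 2, and 567 without DHT with only the groups compared; over both times (4820) they were 8563 with the authors' values, 1559 on slide 1 and 705 on slide 2. For siCBP against siNS without and with DHT and over both (9, 5 and 51) they were 143, 141 and 802 with the authors' values, 15, 20 and 192 with the block, 0, 0 and 1 on slide 1, 0, 0 and 0 on slide 2, 0, 0 and 18 with only the groups compared, and 9 with DHT with quantile normalisation alone. For sip300 against siCBP without and with DHT (868 and 1313) they were 4298 and 5013 with the authors' values, 2267 and 3026 with the block, 166 and 181 on slide 1, 99 and 22 on slide 2, and 284 and 663 with only the groups compared. For the differences of DHT responses, sip300 minus siNS (1) gave 66 with the authors' values, 12 with the block, 3 with slide as a block, 2 with the trend and robust options and 0 with detection on all 24 arrays or on either slide, siCBP minus siNS (0) gave 1 and sip300 minus siCBP (0) gave 31 with the authors' values. With each array left out the counts ran from 775 to 1566 and 1170 to 2172 for sip300 against siNS without and with DHT, from 2 to 10, 1 to 7 and 16 to 54 for siCBP against siNS without and with DHT and over both, from 446 to 910 and 685 to 1395 for sip300 against siCBP, and from 1 to 4 and 0 to 1 for the differences of responses, sip300 minus siNS and minus siCBP. The causes were not tested. Slides alone and fits of only the groups compared hold fewer arrays, and slides alone also mix replicate numbers between groups.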

Other observations

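NDRG1 is also a hypoxia-response gene, and 7 of 10 other hypoxia genes were tested. With DHT in siNS cells 1 rose and 0 fell, where 1.54% of all genes rose and 0.796% fell: ANKRD37, by 1.98 ± 0.349 (log2 ± SE; limma, adjusted p = 0.00153), and in siCBP cells it rose by 1.60 ± 0.349. In sip300 cells its DHT difference was 0.71 ± 0.349 (adjusted p = 0.999). With EP300 siRNA ANKRD37 fell by 1.81 at 16 h of DHT and SLC2A1, the main glucose transporter gene, by 1.17, while ADM, detected on 1 of 4 siNS and 4 of 4 sip300 arrays without DHT, rose there by 1.74. Across all probes 4.41% fell at 16 h, and 721 of 23038 rose without DHT. The median of the list over both times was -0.61 with EP300 siRNA, against 0.02 over all genes. PDK1 was detected on no array and CA9 was not analysed here.

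Genes driven by ERK signalling, which ETV1 and its relatives take part in, gave 0 calls with DHT in any arm among 11 tested (limma; 0, 0 and 1 had an unadjusted p under 0.05 in siNS, sip300 and siCBP cells, where 1.54%, 0.587% and 1.23% of all genes rose). Over both times with EP300 siRNA 2 of the 11 fell, SPRED2 by 0.56 and CCND1 by 0.44, where 11.4% of all genes fell. Of 6 genes reported to act downstream of ETV1, 3 were tested. The mean of ADAM19 over both times with EP300 siRNA passed (limma, adjusted p = 0.00433, where 14.7% of all genes rose). It was detected on 0 of 4 siNS and 4 of 4 sip300 arrays with DHT, at least 1.29-fold higher there (adjusted p = 0.0758). MMP7 was detected on no array.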
